A study of Nannochloropsis oceanica with 6 samples.

Results

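The subject here is 80 gene models whose descriptions carry words of mitochondrial respiration and the citrate cycle in Nannochloropsis oceanica CCMP1779, a unicellular marine alga. They were chosen from the deposited table of 10641 models by 13 word patterns in the functional descriptions (NADH dehydrogenase, NADH:ubiquinone, cytochrome c oxidase, ubiquinol, succinate dehydrogenase, ATP synthase, alternative oxidase, citrate synthase, aconitase, isocitrate dehydrogenase, oxoglutarate dehydrogenase, fumarase, malate dehydrogenase) and by a mean of at least 1 FPKM (fragments normalized to transcript length and library size) over the 6 libraries. The words alone took 90 models, so 10 lay below that level. Of the 80, 66 are described as parts of the respiratory chain, the citrate cycle or their assembly, and 14 are other enzymes that share a word or domain, among them ATP-citrate lyase and vacuolar and plastid proton-pump subunits. Values existed for 10635 models, and 9087 reached the level and were tested. Just inside it lay an NADP-dependent malic enzyme (600304) at a mean of 2.29 FPKM and an alternative oxidase (587833) at 10.0 FPKM. Just outside lay a model of the complex I subunit NDUFA9 (616607) at 0.635 FPKM and a plastid Rieske model (584104) at 0.162 FPKM.

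Messenger RNA was sequenced in 3 groups of 2 libraries: cells given 5 min of blue light, cells given 5 min of red light, and cells kept dark. Both pulses had 20 μmol s-1 m-2. All cultures, the dark ones included, had grown at 22 °C in 12 h of light (30 μmol s-1 m-2) and 12 h of dark, were moved to darkness at zeitgeber time 12, stayed dark for 36 h, and stood in darkness for another 15 min after the pulse or its omission. Whether replicates are separate cultures is not said in the labels, so each p-value rests on library-to-library spread that may be only technical.

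Mitochondria oxidise pyruvate and acetyl-CoA in the citrate cycle and pass the electrons through complexes I to IV to oxygen, which drives the ATP synthase. Complex I and succinate dehydrogenase (complex II) feed ubiquinone, complex III hands the electrons to cytochrome c, and complex IV reduces oxygen. In plants and algae, type II NADH dehydrogenases and alternative oxidases carry electrons past the proton-pumping complexes, and a pulse of light after long darkness meets cells that have been living on respiration. Part of the machinery is encoded in the mitochondrial genome: the RefSeq annotation of the IMET1 strain (assembly ASM5162214v2) lists 10 nad genes, cob, 3 cox genes and 4 atp genes there, and these are not analysed here.

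The FPKM sums of the blue and red libraries were lower than those of the dark libraries, so the direction of small changes depended on the scaling. On the deposited FPKM the median log2 change over all tested models was 0.05 in blue against dark and 0.04 in red against dark; on the deposited TPM it was 0.27 and 0.36, and after median centring −0.22 and −0.12. Relative to dark replicate 1, 1 FPKM stood for 1.66 and 1.2 times as many fragments in the blue libraries, 1.69 and 1.33 in the red libraries, and 1.09 in dark replicate 2, so the second pulsed replicates were the shallower of each pair. The median absolute log2 difference between replicates over the 80 models was 0.14 in blue, 0.11 in red and 0.07 in dark. Of the 80 models, 9 overlapped another model on the same strand and 24 on the opposite strand only, and whether counting used the strand is not stated in the sources, so levels of overlapping models are uncertain. A call below is an adjusted p under 0.05, and a call is said to have held throughout when it kept its direction and stayed past that threshold with each of the 6 libraries left out in turn and under 3 other scalings (TPM, quantile normalization, median centring). The q-values of the authors' deposited table were not part of that check.

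The members divided in both directions after either pulse. In blue against dark 38 were higher, 25 were lower and 17 did not pass, where 76.1% of all tested models were called (39.9% higher, 36.2% lower). The median change was 0.18 on the log2 scale for the members and 0.05 for all tested models, and the split between higher and lower was 50 to 20 on TPM, 42 to 23 after quantile normalization and 25 to 35 after median centring. In red against dark 24 were higher, 29 were lower and 27 did not pass, where 63.3% of all tested models were called (33.7% higher, 29.5% lower); the median was 0.01 for the members and 0.04 for all, and the split was 44 to 16 on TPM, 29 to 22 after quantile normalization and 16 to 38 after median centring. The median change over all tested models was also higher on TPM and lower after median centring, as given above. These shifts of the split thus cannot be read as particular to the members. Shares of all tested models under the other scalings are not given here. Both comparisons use the same dark libraries. In the direct comparison of blue with red 25 were higher in blue, 12 were lower and 43 did not pass, where 50.7% of all tested models were called (27.0% higher, 23.7% lower); the split was 19 to 14 on TPM, 19 to 16 after quantile normalization and 18 to 13 after median centring, and the count of higher models was 16 without blue replicate 2 or without red replicate 1. Calls of at least 1 log2 numbered 16 in blue against dark (20.0%, against 28.5% of all tested models), 9 in red against dark (11.2%, against 12.1%) and 8 in blue against red (10.0%, against 9.67%). By the q-values of the authors' deposited table, 59.3% of all tested models passed in blue against dark and 45.8% in red against dark, and so did 48 and 30 of the 80 members. Calls that held throughout numbered 45 of the 80 in blue against dark (56.2%, against 55.2% of all tested models), 31 in red against dark (38.8%, against 38% of all tested models) and 24 in blue against red (30.0%, against 33.2%). These shares lay near the background in each comparison, and the larger changes belonged to particular enzymes. The 2 groups did not overlap in 86.2% of the members in blue against dark, against 88.1% of all tested models. In red against dark these shares were 91.2% and 83.8%, and in blue against red 68.8% and 73.2%. Groups without overlap, as given below for single models, were thus the usual case in these data.

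**Figure D1:**
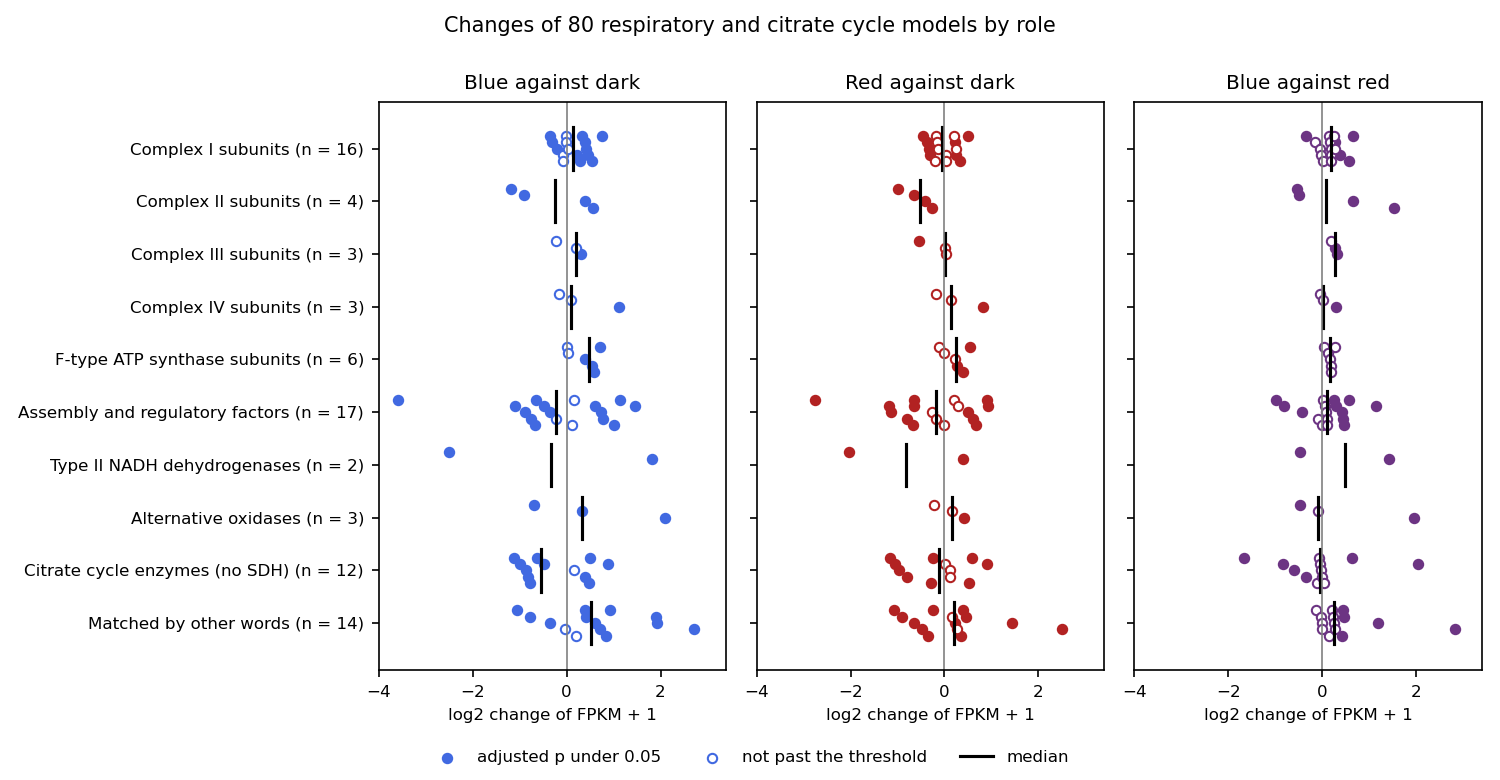
Log2 change of FPKM + 1 (horizontal axis) of each of the 80 models, by role, in panels for blue against dark, for red against dark and for blue against red; filled points passed adjusted p under 0.05, open points did not, and the black bar is the median of the group. The 16 complex I subunits lie within −0.35 to 0.75 in blue against dark, while the assembly factors, the type II NADH dehydrogenases and the citrate cycle enzymes spread widely to both sides.

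In blue against dark 14 of 16 complex I subunits (87.5%) and 3 of 3 complex III subunits changed by at most 0.5 log2, as did 2 of 3 complex IV subunits, 3 of 6 ATP synthase subunits and 1 of 4 subunits of succinate dehydrogenase. So did 3 of 7 subunits of the chain or of an ATP synthase that the words missed, a list added after the values were seen, whose changes ran from −2.03 to 1.74. The shares to set beside these are 41.9% of all tested models and 33.3% of the 12 citrate cycle enzymes (succinate dehydrogenase not counted). Calls that held throughout in that comparison numbered 2 of 16 complex I subunits, 0 of 3 complex III subunits, 1 of 3 complex IV subunits and 3 of 6 ATP synthase subunits. They numbered 3 of 4 subunits of succinate dehydrogenase, 2 of 2 type II NADH dehydrogenases, 2 of 3 alternative oxidases and 10 of 12 citrate cycle enzymes. The 12 include a malate dehydrogenase described as cytoplasmic and an NADP-dependent isocitrate dehydrogenase of unstated compartment. Among all tested models the share whose call held throughout in that comparison was 55.2%. These are counts in groups of very different size, and no test between the groups was made.

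**Figure D2:**
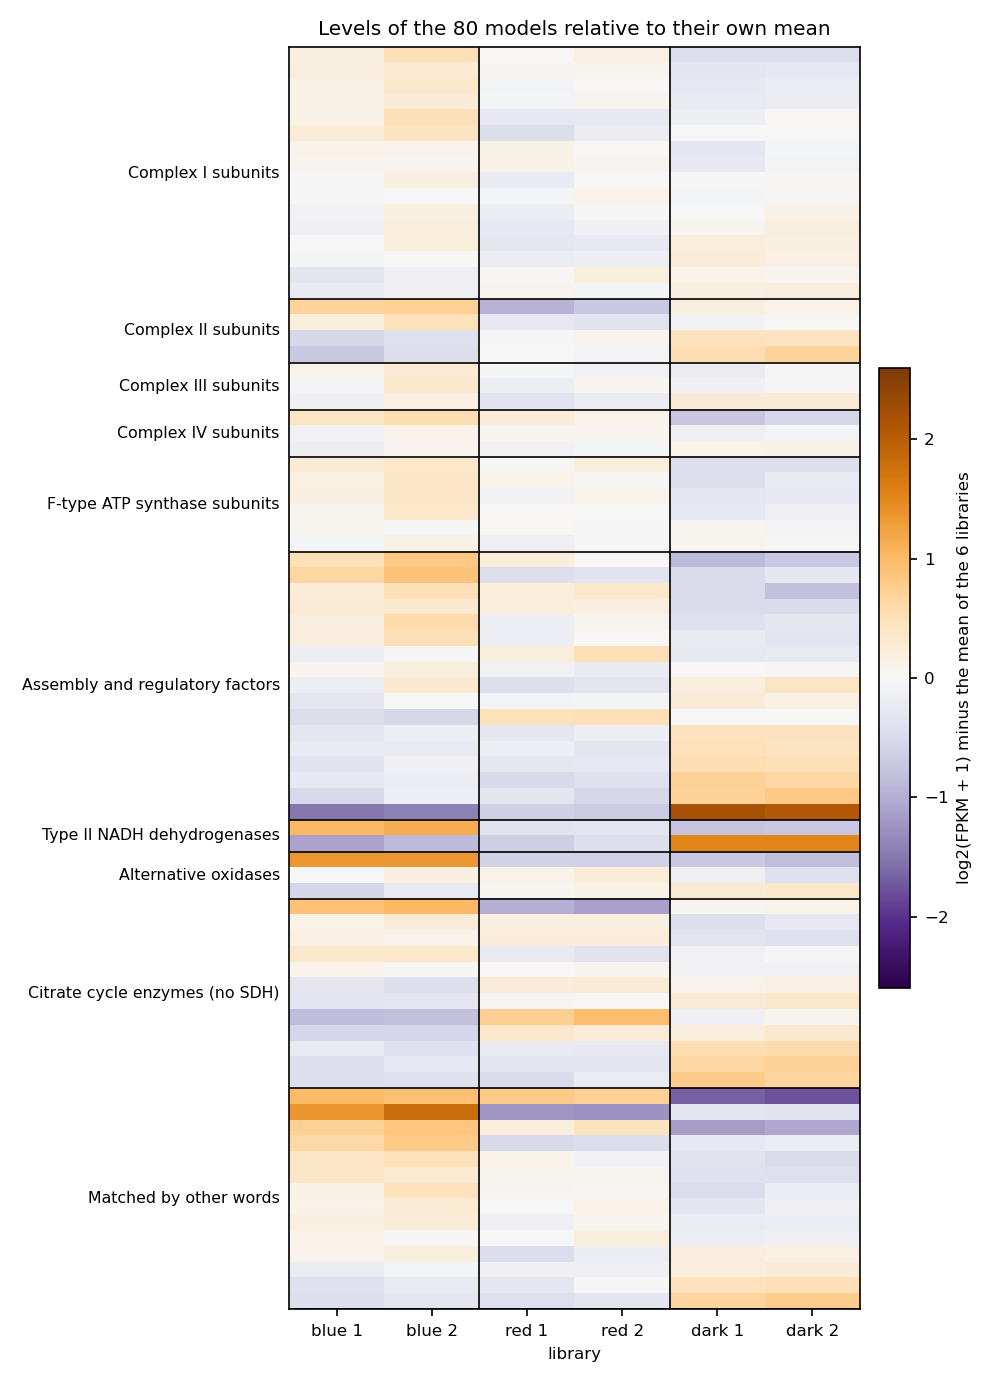
Level of each of the 80 models (1 line each, grouped by role and ordered by the change in blue against dark) in the 6 libraries, as log2(FPKM + 1) minus the model's own mean over the 6 libraries. Pale lines dominate among the complex I subunits, while the single darkest line, an NCA2 model among the assembly and regulatory factors, is high in both dark libraries.

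Complex I, the proton-pumping NADH dehydrogenase, was represented by 16 subunits at group medians of 171 FPKM in blue, 169 in red and 180 in dark libraries. In blue against dark 8 rose, 3 fell and 5 did not pass (median 0.13), where 39.9% of all tested models were higher and 36.2% lower. In red against dark 4 rose, 4 fell and 8 did not pass (median −0.06), where 33.7% of all tested models were higher and 29.5% lower. The direction of the group was set by the scaling: 11 rose and 0 fell in blue against dark on TPM, 9 rose and 1 fell after quantile normalization and 2 rose and 7 fell after median centring, and for red the numbers were 9 and 0, 6 and 0, and 1 and 8. The median over all tested models was likewise higher on TPM and lower after median centring. The risen subunits numbered 4 in blue against dark and 1 in red against dark without dark replicate 1, 5 in blue against dark without blue replicate 2, and 2 in red against dark without red replicate 2; the fallen ones in blue against dark numbered 1 without blue replicate 1 or either dark library.

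NDUFA6 (590054; scaffold 11, 371504 to 372536), an accessory subunit also called B14, had 127 and 159 FPKM in blue, 113 and 124 in red, and 84.1 and 83.1 in dark libraries. Both pulsed pairs lay above both dark libraries, and both blue libraries lay just above both red ones. The change was 0.75 ± 0.11 (log2, SE; adjusted p = 0.000197) in blue against dark and 0.49 ± 0.11 (adjusted p = 0.00388) in red against dark. The accessory subunit B17.2 (588046) had 68.4 and 72.3 FPKM in blue, 61.5 and 61.3 in red, and 47.5 and 49.2 in dark libraries, a stepwise order in which no groups overlapped. It rose by 0.53 ± 0.08 in blue (adjusted p = 0.000205), and this call and that of NDUFA6 were the 2 of the complex that held throughout in blue against dark. In red against dark that of NDUFA6 did. The rise of B17.2 in red, 0.34 ± 0.08, did not pass without dark replicate 1 (0.31, adjusted p = 0.0593) or after median centring (0.18).

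NDUFA5 (610346), a small accessory subunit, gave the clearest difference between the pulses within complex I. It had 272 and 310 FPKM in blue, 170 and 201 in red, and 229 and 232 in dark libraries, so blue lay above and red below the dark libraries. Blue exceeded red by 0.64 ± 0.10 (adjusted p = 0.000858), which held throughout, as did the difference of NDUFA2 (611444), 0.56 ± 0.12 (adjusted p = 0.00358). The changes of NDUFA5 against dark, 0.33 in blue and −0.31 in red, did not pass without dark replicate 1 (0.32 and −0.32) or dark replicate 2 (0.34 and −0.30), the blue one also not without blue replicate 2 (0.24) and the red one not without red replicate 1 (−0.20); on TPM the red value was 0.03. The catalytic core subunits, which carry flavin and iron-sulphur clusters, had these values: the 75 kDa subunit NDUFS1 (574247) changed by 0.41 in blue, the 51 kDa flavin subunit NDUFV1 (671882) by 0.04, and the 23 kDa subunit NDUFS8 (600115) by −0.08 in blue and −0.46 in red, of which the first and the last passed, the first not after median centring (0.14) and the last not on TPM (−0.11) or after quantile normalization. The most abundant subunit was the iron-sulphur subunit 5 model (560447) at a mean of 398 FPKM. A second core model, the 20 kDa subunit NDUFS7 (574800), matched the words at a mean of 0.0358 FPKM and was not tested.

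The 4 models grouped by description as complex I assembly factors changed by −0.89 to 0.77 in blue against dark. The 16 subunits changed by −0.35 to 0.75, and the difference between these groups was not tested. Models 577397 and 528801 are also described as a predicted dehydrogenase. Their place here rests on the CIA30 domain alone, and their compartment is not given. Of 3 models of the CIA30 family, whose members help assemble complex I in fungi and animals, the most abundant (577397) had 246 and 260 FPKM in blue, 206 and 223 in red, and 487 and 452 in dark libraries. It fell by 0.89 ± 0.09 in blue (adjusted p = 1.25e-05) and by 1.13 ± 0.09 in red (adjusted p = 7.53e-06). A second one (528801) fell by 0.66 in both comparisons. The third (575250) had 22.5 and 21.1 FPKM in blue, 43.5 and 44.3 in red, and 30.8 and 31.1 in dark libraries. No groups overlapped, with blue lowest and red highest: it fell by 0.49 ± 0.08 in blue (adjusted p = 0.00054), rose by 0.49 ± 0.08 in red (adjusted p = 0.000756), and differed by −0.98 ± 0.08 between blue and red (adjusted p = 1.64e-05). Assembly factor 3 (588876) rose by 0.77 in blue and 0.68 in red, and all 8 of these calls against dark held throughout. The first CIA30 model shares 44.1% of its span with a model on the same strand that had a mean of 1.98 FPKM.

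The type II NADH dehydrogenases, single-protein enzymes that oxidise NADH without pumping protons, went opposite ways. Their descriptions give no compartment. Model 585103 (scaffold 7, 1040777 to 1043642) had 55.4 and 66.2 FPKM in blue, 78.0 and 90.7 in red, and 347 and 348 in dark libraries. Both pulses lowered it far below dark, and blue lay below red without overlap. The change was −2.5 ± 0.11 in blue (adjusted p = 8.39e-08) and −2.03 ± 0.11 in red (adjusted p = 1.1e-06), and the difference between pulses, −0.47 ± 0.11 (adjusted p = 0.00601), did not pass without red replicate 2 (−0.36, adjusted p = 0.0548). Model 571898 (scaffold 1, 407769 to 409988) had 117 and 128 FPKM in blue, 44.7 and 45.5 in red, and 33.4 and 34.3 in dark libraries. It was highest in blue and slightly above dark in red. The rise was 1.83 ± 0.08 in blue (adjusted p = 1.03e-07) and 0.40 ± 0.08 in red (adjusted p = 0.00209), and blue exceeded red by 1.42 ± 0.08 (adjusted p = 1.34e-06). In dark libraries the first model stood far above the second, and in blue libraries it stood below it. The second model shares 76 bases, 3.42% of its span, with a neighbour on the same strand that changed by 0.25 in blue and −0.60 in red.

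Succinate dehydrogenase, which oxidises succinate in the citrate cycle and reduces ubiquinone, is built from a catalytic pair and a membrane anchor, and the 4 models separated along that line in blue light. The flavoprotein (576315; scaffold 3, 340838 to 343668), which binds succinate, had 170 and 175 FPKM in blue, 54.3 and 63.9 in red, and 121 and 114 in dark libraries. No groups overlapped, with blue highest and red lowest. It rose by 0.55 ± 0.09 in blue (adjusted p = 0.000505) and fell by 0.98 ± 0.09 in red (adjusted p = 2.68e-05), and blue exceeded red by 1.53 ± 0.09 (adjusted p = 2.05e-06), a 2.9-fold difference. The iron-sulphur subunit (577604), which passes the electrons on, had 110 and 131 FPKM in blue, 77.9 and 73.5 in red, and 88.0 and 94.3 in dark libraries, in the same order. Blue exceeded red by 0.66 ± 0.10 (adjusted p = 0.000595). Its rise in blue, 0.39 ± 0.10, did not pass without dark replicate 1 (0.34, adjusted p = 0.0522) or after median centring (0.13), and its fall in red, −0.26 ± 0.10, did not pass without any of the red and dark libraries (−0.31 to −0.22) and was 0.08 on TPM.

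The membrane anchor fell after both pulses. The cytochrome b subunit (600093; scaffold 21, 374273 to 375725) had 115 and 139 FPKM in blue, 189 and 178 in red, and 273 and 303 in dark libraries. The small anchor subunit CybS (601290) had 62.4 and 68.8 FPKM in blue, 89.0 and 95.7 in red, and 125 and 122 in dark libraries. In both models every blue library lay below every red one and every red one below every dark one. The cytochrome b subunit changed by −1.18 ± 0.11 in blue (adjusted p = 7.84e-06), −0.65 ± 0.11 in red (adjusted p = 0.000674) and −0.53 ± 0.11 between blue and red (adjusted p = 0.00288). CybS changed by −0.90 ± 0.09 in blue, −0.42 ± 0.09 in red and −0.49 ± 0.09 between the pulses, all past the threshold, though the red call was lost on TPM (−0.07, adjusted p = 0.392). The assembly factor that attaches flavin to succinate dehydrogenase (552202) had 95.0 and 114 FPKM in blue, 99.4 and 101 in red, and 179 and 172 in dark libraries. It fell by 0.75 ± 0.10 in blue and by 0.80 ± 0.10 in red, and the pulses did not differ past the threshold (0.05 ± 0.10).

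**Figure D3:**
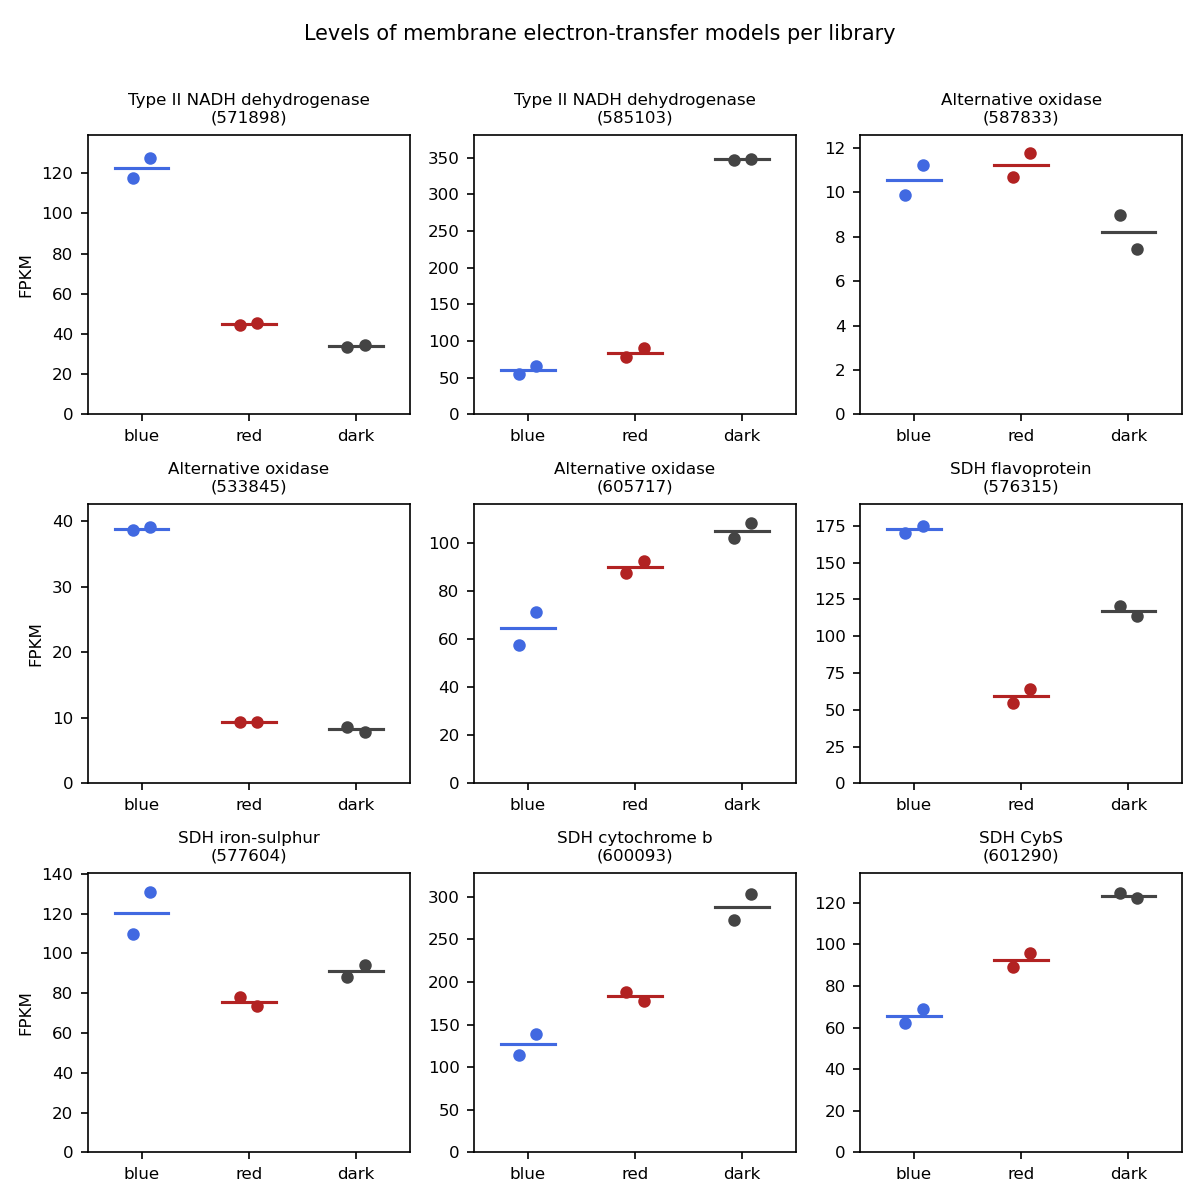
FPKM (vertical axes, each from 0) of the type II NADH dehydrogenases, the alternative oxidases and the succinate dehydrogenase (SDH) subunits in the blue, red and dark libraries; points are libraries, horizontal bars are means of 2 libraries. The SDH flavoprotein and iron-sulphur subunit are highest in blue, whereas the cytochrome b and CybS anchors are highest in dark.

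Complex III, which passes electrons from ubiquinol to cytochrome c, changed little in its 3 matched subunits. The Rieske iron-sulphur protein (592256) had 282 and 365 FPKM in blue, 264 and 303 in red, and 273 and 287 in dark libraries, with overlapping groups and no call in any comparison. QCR7 (579293), an accessory subunit, had 215 and 258 FPKM in blue, 180 and 201 in red, and 278 and 276 in dark libraries. It fell by 0.54 ± 0.10 in red (adjusted p = 0.00171), except on TPM (−0.19, adjusted p = 0.0632), and its change in blue, −0.23, did not pass. The hinge protein (613039) changed by 0.31 in blue and 0.04 in red, of which the first passed, though not without dark replicate 1 (0.23, adjusted p = 0.146) or after median centring (0.05). Cytochrome c1 (596446), the haem subunit that the words did not take and that was added after the values were seen, had 330 and 363 FPKM in blue, 266 and 258 in red, and 216 and 235 in dark libraries. It rose by 0.62 ± 0.09 in blue (adjusted p = 0.000161), and its change in red, 0.22 ± 0.09, did not pass. CBP3 (674394), an assembly factor of complex III in yeast, had 17.3 and 20.8 FPKM in blue, 7.83 and 8.21 in red, and 7.5 and 8.61 in dark libraries. Blue was above all other libraries, with a rise of 1.14 ± 0.12 (adjusted p = 2.12e-05), and red did not differ past the threshold (0.00 ± 0.12; 0.32 on TPM).

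Cytochrome c, the mobile carrier between complexes III and IV, is one of the partner genes of the chain. The model (606831; scaffold 36, 189934 to 190912) had 452 and 479 FPKM in blue, 97.6 and 95.1 in red, and 17.2 and 18.5 in dark libraries. The 3 groups were far apart, in the order blue, red, dark. It rose by 4.63 ± 0.08 in blue (24.8-fold; adjusted p = 1.22e-09) and by 2.37 ± 0.08 in red (5.17-fold; adjusted p = 1.32e-07), and blue exceeded red by 2.26 ± 0.08 (adjusted p = 8.59e-08). No other model of the chain described here changed as much in blue against dark.

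Complex IV, cytochrome c oxidase, had 3 matched subunits, and subunit VIb (593578), which sits where cytochrome c docks in the animal enzyme, was the only one called against dark. It had 128 and 141 FPKM in blue, 114 and 105 in red, and 57.1 and 66.0 in dark libraries, with both pulsed groups above dark. The rise was 1.12 ± 0.10 in blue (adjusted p = 6e-06) and 0.82 ± 0.10 in red (adjusted p = 9.14e-05); the difference between pulses, 0.30 ± 0.10, did not pass without blue replicate 2 (0.23), red replicate 1 (0.35) or red replicate 2 (0.24), nor under the 3 other scalings (0.19 to 0.22). Subunit VIa (597268) had 203 and 232 FPKM in blue, 223 and 226 in red, and 200 and 208 in dark libraries, and subunit Vb (582643) changed by −0.16 in blue and −0.18 in red; neither passed. The core subunits 1 to 3 are mitochondrially encoded in the IMET1 annotation and are not analysed here.

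The assembly factors of complex IV split into risers and fallers. In blue against dark 3 of 8 rose and 3 fell, and in red against dark 1 rose and 3 fell. Of all tested models 39.9% were higher and 36.2% lower in blue against dark, and 33.7% higher and 29.5% lower in red against dark. COX16 (576460), a membrane assembly factor, had 29.2 and 36.0 FPKM in blue, 23.2 and 20.2 in red, and 10.6 and 11.8 in dark libraries. The groups did not overlap, and it rose by 1.46 ± 0.12 in blue (adjusted p = 4.91e-06) and 0.90 ± 0.12 in red (adjusted p = 0.00022). The copper chaperone of the SCO1 family (582656) rose by 0.73 ± 0.13 in blue (adjusted p = 0.000687) and COX19 (585041) by 0.62 ± 0.12. The rise of COX19 did not pass in the authors' deposited table (q = 0.406). PET191 (609145) had 94.3 and 121 FPKM in blue, 108 and 92.7 in red, and 220 and 238 in dark libraries. Pulsed libraries mixed with each other and all lay below dark, with falls of 1.09 ± 0.13 in blue (adjusted p = 4.21e-05) and 1.18 ± 0.13 in red (adjusted p = 5.1e-05). COX17 (610207), which carries copper to the enzyme, fell by 0.66 ± 0.09 in blue and by 0.68 ± 0.09 in red. In blue against red 5 of 8 were higher in blue and 0 were lower, but the higher ones numbered 1 without blue replicate 2, 2 without red replicate 1 and 3 without red replicate 2. For all tested models the shares were 27.0% higher in blue and 23.7% lower.

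The alternative oxidases, which pass electrons from ubiquinol straight to oxygen, had 3 models with 3 patterns. The descriptions of these models name the oxidase or its domain and give no compartment. Model 533845 (scaffold 48, 104072 to 105770) had 38.6 and 39.0 FPKM in blue, 9.35 and 9.36 in red, and 8.66 and 7.86 in dark libraries. Only the blue libraries stood out: the rise was 2.11 ± 0.09 in blue (4.3-fold; adjusted p = 1.09e-07) and the change in red 0.16 ± 0.09 (adjusted p = 0.165), and blue exceeded red by 1.94 ± 0.09 (adjusted p = 5.22e-07). Model 605717 had 57.3 and 71.4 FPKM in blue, 87.2 and 92.3 in red, and 102 and 108 in dark libraries, the reverse order. It fell by 0.70 ± 0.11 in blue (adjusted p = 0.000261) and differed by −0.48 ± 0.11 between blue and red (adjusted p = 0.00521), but 92.9% of its span lies in another model on the same strand (605725, a cyclic nucleotide-binding domain protein) that changed by −0.48 in blue, so the level cannot be assigned to the oxidase alone. Model 587833 had 9.89 and 11.2 FPKM in blue, 10.7 and 11.8 in red, and 9.0 and 7.43 in dark libraries. Its rises of 0.33 and 0.41 did not pass without dark replicate 2 (0.21 and 0.29), the blue one also not without blue replicate 2 (0.25) and the red one not without red replicate 2 (0.35), and neither passed after quantile normalization or median centring. With either red library left out the blue call also missed the threshold narrowly (adjusted p = 0.0501 and 0.0505), and 32.6% of its span is shared with a mitochondrial carrier model.

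The ATP synthase, which uses the proton gradient to make ATP, had 6 matched subunits of the F-type enzyme at group medians of 461 FPKM in blue, 407 in red and 302 in dark libraries. In blue against dark 4 rose, 0 fell and 2 did not pass (median 0.47), where 39.9% of all tested models were higher and 36.2% lower. In red against dark 3 rose, 0 fell and 3 did not pass (median 0.25), where 33.7% of all tested models were higher and 29.5% lower. None of the 6 was called between blue and red. After median centring 3 rose and 2 fell in blue and 1 rose and 1 fell in red, while on TPM 6 rose in either comparison. The median over all tested models also moved down and up under these scalings. The catalytic beta subunit (591030; scaffold 12, 197732 to 200791) had 555 and 591 FPKM in blue, 478 and 542 in red, and 348 and 352 in dark libraries. Every pulsed library lay above both dark ones, with rises of 0.71 ± 0.09 in blue (adjusted p = 8.79e-05) and 0.54 ± 0.09 in red (adjusted p = 0.000813) that held throughout. The gamma subunit (584816), the rotating shaft, had 346 and 396 FPKM in blue, 287 and 329 in red, and 250 and 259 in dark libraries, and rose by 0.54 ± 0.10 in blue (adjusted p = 0.000955). The epsilon subunit of the mitochondrial enzyme (576092) rose by 0.59 ± 0.10 in blue (adjusted p = 0.000693). The rise of the gamma subunit in red, 0.27, did not pass without red replicate 2 (0.18), dark replicate 1 (0.25) or dark replicate 2 (0.30), and that of the epsilon subunit, 0.40, not without red replicate 1 (0.35) or dark replicate 1 (0.31). The risen subunits in red against dark numbered 1 without dark replicate 1, and 3 subunits were higher in blue than in red without blue replicate 1.

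OSCP (587845), the stalk subunit that links the parts of the enzyme, had 516 and 588 FPKM in blue, 491 and 528 in red, and 554 and 546 in dark libraries. Its groups overlapped between blue and dark, and the changes of 0.00 in blue and −0.11 in red did not pass; the scaling made calls in both directions. After median centring the blue value was −0.26 (adjusted p = 0.0236), and in red it was 0.24 on TPM (adjusted p = 0.0152) and 0.47 after quantile normalization (adjusted p = 0.000524). The model described as an alpha subunit (565691) had 19.0 and 17.8 FPKM in blue, 18.3 and 17.8 in red, and 18.9 and 17.3 in dark libraries. That was a small part of the level of the beta subunit in FPKM, which is per length; the IMET1 annotation lists an atp1 gene, the alpha subunit, in the mitochondrial genome. The peripheral stalk subunit b (590912), added after the values were seen, had 327 and 338 FPKM in blue, 241 and 252 in red, and 124 and 137 in dark libraries. It rose by 1.35 ± 0.08 in blue (adjusted p = 7.53e-07) and 0.91 ± 0.08 in red (adjusted p = 2.05e-05), more than any of the 6.

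The factors named for control or assembly of the ATP synthase held the largest fall of all 80 models. NCA2, which in yeast controls expression of the mitochondrial genes for subunits 6 and 8, had 2 models. The first (603379; scaffold 26, 381995 to 383512) had 10.8 and 11.8 FPKM in blue, 21.1 and 20.1 in red, and 152 and 140 in dark libraries. The groups were far apart, dark highest and blue lowest. It fell by 3.58 ± 0.09 in blue (adjusted p = 4.46e-09) and fell by 2.76 ± 0.09 in red (adjusted p = 1.32e-07), and blue lay below red by 0.81 ± 0.09 on the log2 scale (adjusted p = 8.18e-05). The second (573009) had 28.8 and 31.5 FPKM in blue, 37.4 and 45.6 in red, and 26.5 and 27.1 in dark libraries, and rose only in red among the comparisons with dark (0.61 ± 0.11, adjusted p = 0.00102, against 0.17 ± 0.11 in blue). Its difference between blue and red, −0.44 ± 0.11, did not pass without red replicate 2 (−0.30, adjusted p = 0.0612). This second model shares 48.0% of its span with a model on the same strand. That neighbour had a mean of 5.15 FPKM and changed by −0.50 in blue and 0.36 in red. The F1 assembly factor ATP12 (576435) had 15.3 and 18.6 FPKM in blue, 15.0 and 16.8 in red, and 8.79 and 7.0 in dark libraries, and rose by 1.02 ± 0.14 and 0.93 ± 0.14, without a difference past the threshold between pulses.

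The mitochondrial ADP/ATP carrier, which exports the ATP made in the matrix, rose with cytochrome c. The model (586185; scaffold 8, 665552 to 667133) had 1021 and 1225 FPKM in blue, 439 and 477 in red, and 67.7 and 73.3 in dark libraries. No groups overlapped, and the order was blue, red, dark. It rose by 3.97 ± 0.11 in blue (15.7-fold; adjusted p = 6.31e-09) and by 2.68 ± 0.11 in red (6.42-fold; adjusted p = 2.49e-07). The other 6 models with the carrier's description included some named as plastid translocases; over all 7, 5 rose and 2 fell in blue against dark, and 4 rose and 2 fell in red against dark. For all tested models the shares were 39.9% higher and 36.2% lower in blue against dark, and 33.7% and 29.5% in red against dark. Levels of 586185 are uncertain by the 83 bases it shares with a neighbour on the same strand.

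The citrate cycle enzymes, without succinate dehydrogenase, numbered 12: 4 rose, 7 fell and 1 did not pass in blue against dark (median −0.55, against 0.05 over all tested models), and 3 rose, 6 fell and 3 did not pass in red against dark (median −0.11, against 0.04). Of all tested models 39.9% were higher and 36.2% lower in blue against dark, and 33.7% higher and 29.5% lower in red against dark. The 12 include a malate dehydrogenase described as cytoplasmic and an NADP-dependent isocitrate dehydrogenase of unstated compartment. Where an enzyme had several models, these often moved apart. Citrate synthase, which joins acetyl-CoA to oxaloacetate, had 2 models. The first (599276; scaffold 20, 325454 to 327858) had 11.4 and 11.8 FPKM in blue, 36.1 and 42.6 in red, and 19.3 and 22.0 in dark libraries. It was lowest in blue and highest in red, without overlap: −0.78 ± 0.11 in blue (adjusted p = 0.000153), 0.90 ± 0.11 in red (adjusted p = 0.000112) and −1.67 ± 0.11 between blue and red (adjusted p = 3.19e-06). The second (588676) had 33.4 and 34.3 FPKM in blue, 43.6 and 42.6 in red, and 52.0 and 53.6 in dark libraries. It fell by 0.63 ± 0.08 in blue (adjusted p = 7.14e-05). The fall in red, −0.29 ± 0.08, did not pass without red replicate 2 (−0.27), dark replicate 1 (−0.31) or dark replicate 2 (−0.26) and was 0.06 on TPM. In the authors' deposited table neither fall of this second model passed (q = 0.510 in blue and 0.736 in red).

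Aconitase, which isomerises citrate, also had 2 models, far apart in level. The abundant one (550334; scaffold 2, 983604 to 986483) had 366 and 376 FPKM in blue, 350 and 428 in red, and 843 and 776 in dark libraries. Blue and red overlapped, and both lay below dark: −1.12 ± 0.11 in blue (adjusted p = 1.22e-05) and −1.06 ± 0.11 in red (adjusted p = 3.84e-05). The other (672461) had 36.2 and 34.8 FPKM in blue, 38.3 and 38.4 in red, and 25.5 and 24.8 in dark libraries. It rose by 0.48 ± 0.08 in blue (adjusted p = 0.000476) and 0.59 ± 0.08 in red (adjusted p = 0.000218). The 4 calls held throughout. Isocitrate dehydrogenase was matched by an NADP-dependent model (572358) with 50.4 and 50.0 FPKM in blue, 94.5 and 87.4 in red, and 86.5 and 93.0 in dark libraries. Its description gives no compartment, so its place in the cycle rests on the enzyme name alone. Red and dark overlapped and blue lay below both, with a fall of 0.82 ± 0.08 in blue (adjusted p = 1.53e-05), a change of 0.02 ± 0.08 in red, and −0.84 ± 0.08 between blue and red (adjusted p = 3.97e-05).

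The oxoglutarate dehydrogenase complex, which makes succinyl-CoA, had 2 models for the decarboxylase E1 and 2 for the succinyl transferase E2. One E1 model (590215) had 63.5 and 60.7 FPKM in blue, 60.2 and 61.5 in red, and 55.9 and 55.4 in dark libraries and was called in none of the 3 comparisons. The other E1 model (639981) had 40.1 and 36.8 FPKM in blue, 58.5 and 59.6 in red, and 52.9 and 55.1 in dark libraries. It fell by 0.48 ± 0.08 in blue (adjusted p = 0.000558) and by 0.61 ± 0.08 in blue against red (adjusted p = 0.00031), and did not pass in red against dark (0.13 ± 0.08). One E2 model (589991) had 44.1 and 44.7 FPKM in blue, 29.4 and 27.2 in red, and 32.8 and 34.2 in dark libraries. Blue exceeded red by 0.63 ± 0.08 (adjusted p = 0.000279), which held throughout, while its rise in blue, 0.40, was not called after median centring (0.13) or quantile normalization (0.20) and its fall in red, −0.24, not without red replicate 2 (−0.18), dark replicate 1 (−0.27) or dark replicate 2 (−0.21), and was 0.10 on TPM. The other E2 model (599068) fell by 0.86 ± 0.09 in blue and by 0.80 ± 0.09 in red. Succinyl-CoA ligase, the next enzyme and one of the partner genes, fell in blue against dark in both of its models (−0.44 and −0.73; the beta subunit not on TPM, −0.19) and passed in neither in red against dark (−0.12 and −0.17).

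Fumarase (597715), which hydrates fumarate to malate, had 9.16 and 10.2 FPKM in blue, 9.89 and 9.82 in red, and 19.9 and 20.8 in dark libraries. Pulsed groups overlapped and lay below both dark libraries: −1.0 ± 0.10 in blue (adjusted p = 1.41e-05) and −0.98 ± 0.10 in red (adjusted p = 3.68e-05). Malate dehydrogenase, which regenerates oxaloacetate, had a model described as cytoplasmic (629435; scaffold 7, 877131 to 880134) with 26.4 and 28.6 FPKM in blue, 6.31 and 5.65 in red, and 14.4 and 14.7 in dark libraries. Blue lay above and red below dark, without overlap. It rose by 0.87 ± 0.10 in blue (adjusted p = 3.8e-05) and fell by 1.15 ± 0.10 in red (adjusted p = 1.48e-05), and blue exceeded red by 2.03 ± 0.10 (4.08-fold; adjusted p = 5.69e-07), the largest difference between the pulses among the models counted here as citrate cycle enzymes. Its description places it in the cytoplasm, not in the mitochondrion. The other model (625443) had 24.4 and 26.5 FPKM in blue, 25.8 and 25.6 in red, and 16.7 and 18.6 in dark libraries. It rose by 0.51 ± 0.10 and 0.52 ± 0.10, but 31.8% of its span is shared with a glutaredoxin model on the same strand that had a mean of 372 FPKM and rose by 1.35 in blue. Neither rise of 625443 passed in the authors' deposited table (q = 0.257 in blue and 0.223 in red).

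**Figure D4:**
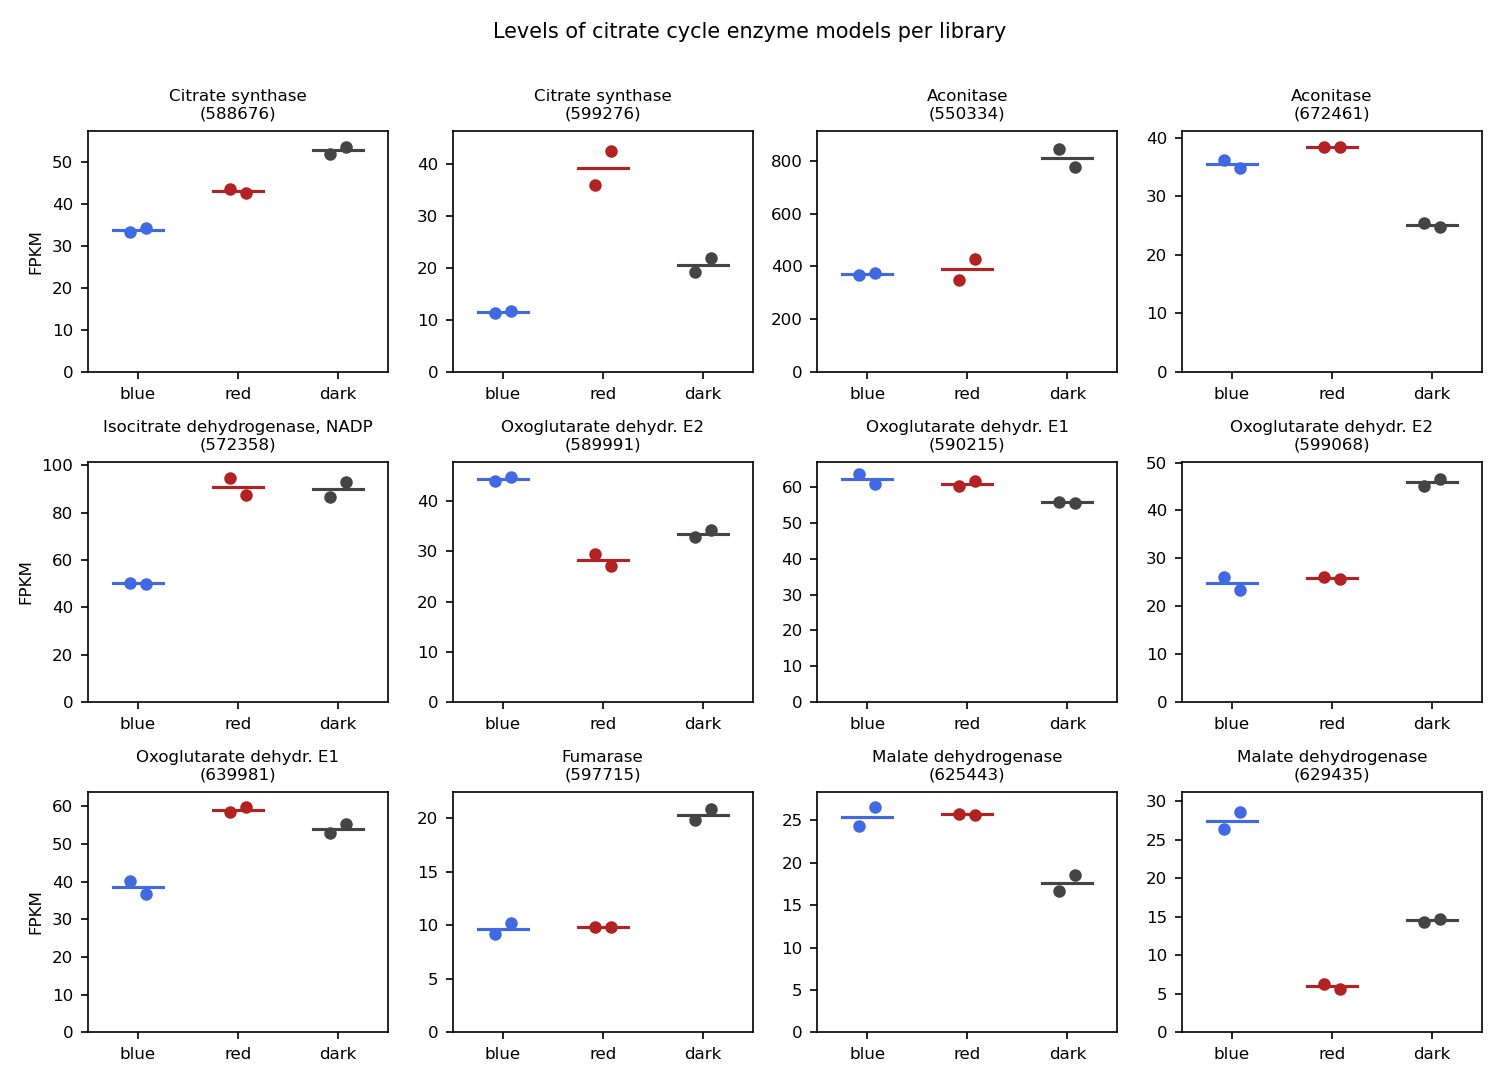
FPKM (vertical axes, each from 0) of the 12 citrate cycle enzyme models in the blue, red and dark libraries; points are libraries, horizontal bars are means of 2 libraries. Citrate synthase 599276 is highest in red and lowest in blue, cytoplasmic malate dehydrogenase 629435 is the reverse, and aconitase 550334 and fumarase 597715 are highest in dark.

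Among 50 other genes of the pathway, taken by word patterns for enzymes that feed or link to the chain, 22 rose (44.0%, against 39.9% of all tested models), 19 fell (38.0%, against 36.2%) and 9 did not pass in blue against dark (median 0.17). In red against dark 17 rose (34.0%, against 33.7%), 13 fell (26.0%, against 29.5%) and 20 did not pass (median −0.03). Without dark replicate 2, 8 fell in red against dark. The pyruvate dehydrogenase complex, which makes acetyl-CoA, and the lipoamide enzymes it shares had 13 models, of which 9 rose and 2 fell in blue and 7 rose and 2 fell in red. The shares of all tested models above are those to set beside these counts. An E1 alpha model (585644) had 224 and 248 FPKM in blue, 57.1 and 63.6 in red, and 37.6 and 38.8 in dark libraries, and rose by 2.59 ± 0.09 in blue (6.04-fold; adjusted p = 2.49e-08) and 0.64 ± 0.09 in red (adjusted p = 0.000247). The other E1 alpha model (577236) was called in none of the 3 comparisons. The compartment of these copies is not given by the descriptions, and algal plastids hold such a complex as well. The remaining partner genes named here were chosen after their values were seen. Isocitrate lyase (597162), an enzyme of the glyoxylate cycle, had 147 and 154 FPKM in blue, 222 and 235 in red, and 549 and 557 in dark libraries, and fell by 1.87 ± 0.08 in blue (adjusted p = 8.05e-08) and by 1.27 ± 0.08 in red (adjusted p = 2.48e-06). The 2 malate synthase models, the second enzyme of that cycle, moved apart in blue (−1.20 and 0.52) and passed in neither case in red (−0.16 and 0.00).

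Pyruvate dehydrogenase kinases, which switch that complex off by phosphorylation, had 4 models, a list added after the values were seen. The most abundant (572138) had 66.2 and 68.7 FPKM in blue, 175 and 187 in red, and 265 and 269 in dark libraries, and fell by 1.97 ± 0.08 in blue (adjusted p = 5.65e-08) and by 0.56 ± 0.08 in red (adjusted p = 0.000263). Another (594348) rose by 1.70 ± 0.11 in blue (adjusted p = 9.79e-07). Over the 4 models 2 rose and 2 fell in blue against dark, where 39.9% of all tested models were higher and 36.2% lower. A model described as an NADH-dependent fumarate reductase (588713), also added, had 26.3 and 23.0 FPKM in blue, 36.5 and 33.2 in red, and 249 and 242 in dark libraries. It fell by 3.27 ± 0.09 in blue (adjusted p = 8.95e-09) and fell by 2.78 ± 0.09 in red (adjusted p = 1.32e-07). One further added model, an MLRQ-type subunit of the chain that the words missed (589488), had 207 and 231 FPKM in blue, 176 and 176 in red, and 876 and 915 in dark libraries, and fell by 2.03 ± 0.09 in blue and by 2.34 ± 0.09 in red. No matched subunit of complexes I to IV moved as far against dark. A second MLRQ model (576174) had 409 and 442 FPKM in blue, 367 and 395 in red, and 345 and 363 in dark libraries. Prohibitins, ring-forming scaffold proteins of the inner membrane, fell in 4 of 5 models in blue, where 36.2% of all tested models were lower, and in 3 of 5 in red, where 29.5% were. None rose, except 1 in blue without blue replicate 1 or on TPM, and 1 in either comparison after quantile normalization. Without dark replicate 2 the fallen models in red numbered 2, and after median centring 5. In ubiquinone synthesis 5 of 12 models rose and 5 fell in blue, and 4 rose and 4 fell in red. Of all tested models 39.9% were higher and 36.2% lower in blue against dark, and 33.7% and 29.5% in red against dark. Without dark replicate 1, 3 models of ubiquinone synthesis rose in blue, and without red replicate 1, 2 rose and 2 fell in red.

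**Figure D5:**
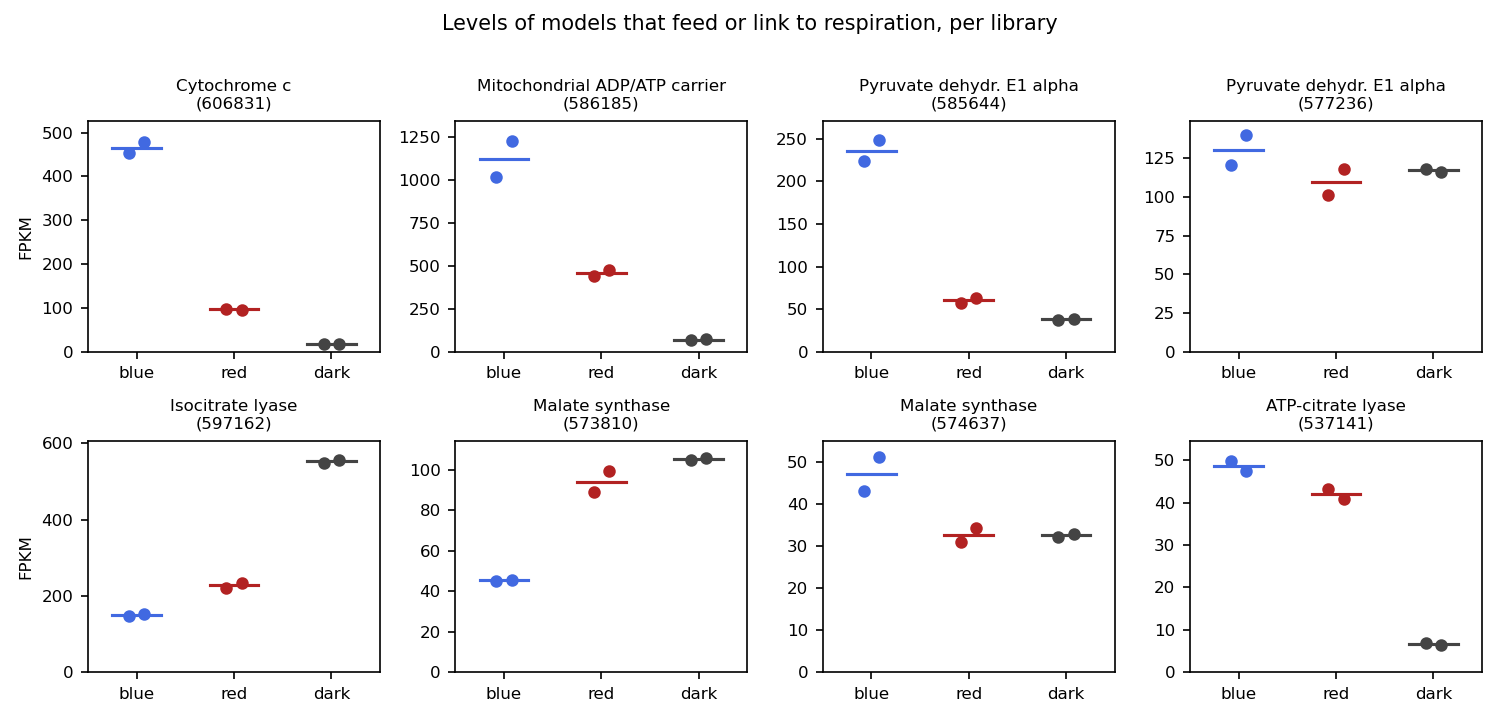
FPKM (vertical axes, each from 0) of cytochrome c, the mitochondrial ADP/ATP carrier, both pyruvate dehydrogenase E1 alpha models, isocitrate lyase, both malate synthases and ATP-citrate lyase in the blue, red and dark libraries; points are libraries, horizontal bars are means of 2 libraries. Cytochrome c and the carrier step down in the order blue, red, dark, and isocitrate lyase steps up in the same order.

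The words also took 14 models of other enzymes. ATP-citrate lyase (537141; scaffold 3, 312926 to 317445), which turns exported citrate into acetyl-CoA and matched through its citrate synthase-like domain, had 49.7 and 47.5 FPKM in blue, 43.2 and 40.8 in red, and 6.88 and 6.36 in dark libraries. Both pulsed groups were far above dark, with rises of 2.70 ± 0.09 in blue (6.51-fold; adjusted p = 2e-08) and 2.5 ± 0.09 in red (5.65-fold; adjusted p = 1.58e-07), and blue and red did not differ past the threshold (0.20 ± 0.09). These were the largest rises of the 80 models in both comparisons. A Rieske protein model of unstated compartment (584134; scaffold 7, 448720 to 450445) had 73.7 and 100 FPKM in blue, 11.4 and 11.2 in red, and 22.1 and 21.8 in dark libraries. Blue lay above and red below dark: 1.92 ± 0.13 in blue (adjusted p = 1.32e-06), −0.90 ± 0.13 in red (adjusted p = 0.000322) and 2.82 ± 0.13 between blue and red (7.07-fold; adjusted p = 4.09e-07), the largest difference between the pulses of the 80 models. In the authors' deposited table its fall in red did not pass (q = 0.0587). The chloroplast ATP synthase gamma subunit (601881) had 257 and 286 FPKM in blue, 181 and 213 in red, and 68.7 and 74.3 in dark libraries, and rose by 1.91 ± 0.10 and 1.45 ± 0.10, against 0.54 and 0.27 for the F-type gamma subunit above. The plastid model shares 11.6% of its span with a second gamma model on the same strand.

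L-aspartate oxidase (582207), a relative of the succinate dehydrogenase flavoprotein that starts NAD synthesis, had 392 and 446 FPKM in blue, 178 and 190 in red, and 215 and 224 in dark libraries. It followed the flavoprotein's order, blue above dark above red: it rose by 0.92 ± 0.09 in blue (adjusted p = 1.35e-05) and exceeded red by 1.18 ± 0.09 in blue (adjusted p = 8.87e-06). Its change in red, −0.25 ± 0.09, did not pass without any of the red and dark libraries (−0.30 to −0.21) and was 0.10 on TPM. The vacuolar proton pump had 3 models, of which the V1 subunit D model (587398) fell by 1.07 ± 0.09 in blue and by 1.06 ± 0.09 in red. Among 4 enzymes of leucine and lysine synthesis that share domains with the cycle, the isopropylmalate or homocitrate synthase model (579683) fell by 0.78 ± 0.10 in blue and by 0.64 ± 0.10 in red, and isopropylmalate dehydrogenase (626203) rose by 0.71 ± 0.10 and 0.45 ± 0.10.

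Members lay near each other in 5 cases within 10 kb. The closest pair, PET191 (609145) and a Cmc1-like assembly factor of complex IV (609137) on scaffold 44, lay head to head with 185 bases between them. The Cmc1-like model had 143 and 198 FPKM in blue, 119 and 129 in red, and 183 and 210 in dark libraries, and changed by −0.21 ± 0.14 in blue, which did not pass, and by −0.65 ± 0.14 in red, where the call was lost on TPM (−0.30, adjusted p = 0.0547). Its neighbour PET191 fell in both comparisons. Cytochrome c (606831) lay 8.23 kb from an ADP/ATP transporter model (606817) on the same strand of scaffold 36, which had 45.5 and 45.1 FPKM in blue, 24.4 and 24.9 in red, and 14.6 and 14.1 in dark libraries and rose by 1.59 ± 0.08 and 0.74 ± 0.08, a pair noticed after the values were seen.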

How the data were processed

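Polyadenylated RNA of 6 libraries (2 per group) was made into strand-specific libraries, per the labels' protocols. Cuffdiff, Cuffnorm, Cufflinks, TopHat and FastQC appear, with no stated role, per the submitters' processing notes; their settings: not given in the sources used here. The authors deposited FPKM and TPM values for each library, and TPM is FPKM times 1 constant per library. The authors also deposited log2 fold changes with p-values and q-values for each pulse against dark, which serve as an alternative. The files hold no counts, so depth is given only in relative terms, from the steps between low values.

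For the fit, 9087 models averaging 1 FPKM or more were taken on log2(FPKM + 1), so changes of low models are understated, with limma 3.58.1 in R 4.3.3 (3 residual degrees of freedom from all 6 libraries, variances moderated towards a trend, two-sided tests, Benjamini-Hochberg adjustment over all models). Values after ± are standard errors of log2 changes. No 2 replicates held identical values. Gene models and scaffold positions are those of the Nanoce1779_2 annotation in the deposited table. The members and lists were chosen with earlier results of these data known. Named models are every citrate cycle enzyme and alternative oxidase; of each other role up to 4, 3 and 2 with the largest called changes in the 3 comparisons and the most abundant; and 3 partner genes. Others named were chosen after their values were seen. Alternatives were other scalings, pseudocounts, filters and variance models, each library left out, and a replicate block.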

Additional observations from a re-analysis of the deposited data

How the results depend on the processing

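The counts of 63 (38 higher, 25 lower) of the 80 models called in blue against dark, 53 (24 and 29) in red against dark and 37 (25 and 12) in blue against red moved by over 1.5 times under few settings. Over the 47 models without overlap they were 34 (19 and 15), 27 (9 and 18) and 23 (15 higher), but these are counts out of fewer models. As shares, 40.4% of the 47 were higher and 31.9% lower in blue against dark, against 47.5% and 31.2% of the 80. In red against dark the shares were 19.1% and 38.3%, against 30.0% and 36.2%. In blue against red they were 31.9% and 17.0%, against 31.2% and 15.0%. Median centring left 25 higher in blue against dark, TPM gave 44 higher and 16 lower in red against dark, and the q-values of the authors' deposited table gave 30 (11 and 19) in red against dark. With 1 library left out, the counts ranged from 52 to 62 (30 to 37 higher, 22 to 28 lower), 38 to 61 (17 to 28, 21 to 33) and 28 to 48 (16 to 37, 9 to 12).

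With the replicate number as a block the counts were 64, 55 and 41, and no call of a named model was lost. The differences of replicate 1 minus 2 correlated across models by 0.0915 between blue and dark, −0.0818 between red and dark and 0.340 between blue and red. Whether the numbers pair libraries cannot be told from this. The suffixes in the sample titles differ between red and the other groups, so the block may join unlike libraries.

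By the q-values of the authors' deposited table, 10 calls of models named by the rule in blue against dark and 21 in red against dark did not pass. Those in red include NDUFA6 (q = 0.0805), cytochrome c oxidase subunit VIb (q = 0.0931) and COX16 (q = 0.0954). They also include the type II NADH dehydrogenase 571898 (q = 0.0613) and CybS (q = 0.126). Direction turned for some named models. Red against dark on TPM gave 0.0032 for a vacuolar subunit c (40131), 0.082 for 577604, 0.10 for 582207, 0.24 for 587845, 0.058 for 588676, 0.10 for 589991, 0.035 for 610346 and 0.32 for 674394; after quantile normalization it gave 0.12 for 40131, 0.030 for 582207 and 0.47 for 587845. Blue against dark gave −0.043 (560447) and −0.26 (587845) after median centring, 0.22 (591957) and 0.045 (NDUFS4, 594581) on TPM, and 0.27 (591957) and 0.24 (600115) after quantile normalization. The cause was not tested. Small changes of either sign thus rest on the scaling between libraries, and with 2 libraries a group the spread is pooled over all 3 groups.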
